A study of Mus musculus with 4 samples.

Results

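The 4 genes of the TOX family, Tox, Tox2, Tox3 and Tox4, were examined for open chromatin in mouse CD4 T cells with TOX removed (KO) and with TOX (WT). Open chromatin had been mapped by ATAC-seq, in which a transposase cuts accessible DNA and leaves sequencing adapters there, and each library came as its own list of peaks. Peaks of the 4 lists that overlapped by at least 1 bp were merged into regions, and a region was given to a gene when that gene had the nearest protein-coding RefSeq interval (GRCm38) within 100 kb of the region's midpoint. This gave 77 of 97394 regions to the family, of which 57 lay at Tox, 16 at Tox2, 3 at Tox3 and 1 at Tox4.

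All donor cells were naive SMARTA T cells, which carry a transgenic receptor for the GP61 peptide, and were moved into mice that bore B16-GP61 melanoma and had been given cytoxan, an alkylating drug that depletes lymphocytes. They were recovered from the tumor-draining lymph node 11 days later. The KO cells, 2 libraries, carried Ly5.1+ without Ly5.2 (Ly5.2-) and were sorted as CD4+ cells low in PD1, LAG3 and CD39. The WT cells, 2 libraries, carried both markers (Ly5.1+ Ly5.2+) and were sorted as CD4+ cells high in the same 3 proteins. Genotype, sort gate and congenic marker thus changed together and cannot be told apart. Neither the labels nor the lists state the age of the animals, the deleted part of Tox, or whether each library came from its own animal, so the spread between libraries may be technical.

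TOX proteins share a single HMG box, a fold that binds and bends DNA with more regard for its shape than for its sequence. TOX is needed for the development of CD4 T cells and is known for holding the exhausted state of T cells that meet antigen for long, where calcineurin and NFAT turn its gene on. TOX2 acts beside it in exhausted and follicular helper T cells, TOX3 is known from neurons and breast tissue, and TOX4 is broadly used and is found with a phosphatase complex that acts on RNA polymerase.

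Before the family, 3 facts of the whole series bear on every value. The KO-1 and KO-2 lists held 43078 and 61773 peaks, against 56852 and 61489 in WT-1 and WT-2, and read depth is unknown. Regions nearest to 12 B cell marker genes had a peak in 11 and 21 of 132 cases in KO-1 and KO-2, against 98 and 114 in WT-1 and WT-2, although neither gate was meant to hold B cells. Ms4a1, which marks B cells, had no peak in either KO library, and 3 and 2 regions with a peak in WT-1 and WT-2. Regions of 14 T cell marker genes had a peak in 97 and 129 of 167 cases in KO-1 and KO-2, against 103 in each WT library, so T cell markers were open in every library. For 11 myeloid and dendritic genes these numbers were 28 and 43 of 89 in KO-1 and KO-2 against 62 and 70 in WT-1 and WT-2, for 7 melanocyte genes 8 and 16 of 21 against 8 and 8, and for 3 natural killer genes 10 and 17 of 23 against 15 and 17. Between 1603 and 1900 peak numbers a library are missing from the lists for a reason not given in the sources used here, and an absent peak need not mean closed chromatin.

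The largest count of open regions in the family stood in KO-2 at Tox, the gene of the protein removed in the KO cells. At this gene the KO libraries carried peaks in places where the WT libraries had none. Of the 57 Tox regions, 32 had a peak in KO-1 and 46 in KO-2, against 30 in WT-1 and 30 in WT-2. KO-1 stood close to the WT libraries and KO-2 apart, although both KO values lay above both WT values. Inside the gene interval alone this order was lost, with 27 and 38 regions with a peak in KO-1 and KO-2, against 28 and 27 in WT-1 and WT-2 (exact two-sided permutation p = 1.0). The means were 39 ± 9.9 in KO and 30 ± 0 in WT (SD, n = 2 each), a difference of 9.0 that did not reach the KO spread of 9.9 (exact two-sided permutation p = 0.333, the smallest that 2 against 2 libraries can give, and 1.0 after Benjamini-Hochberg adjustment over the 4 genes). Without KO-1 the difference was 17.0, and without KO-2 it was 2.0. Over the whole series 40.9% and 60.0% of regions had a peak in KO-1 and KO-2, against 54.4% and 60.2% in WT-1 and WT-2. At Tox these shares were 56.1% and 80.7% in KO-1 and KO-2, against 52.6% in both WT libraries.

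**Figure D1:**
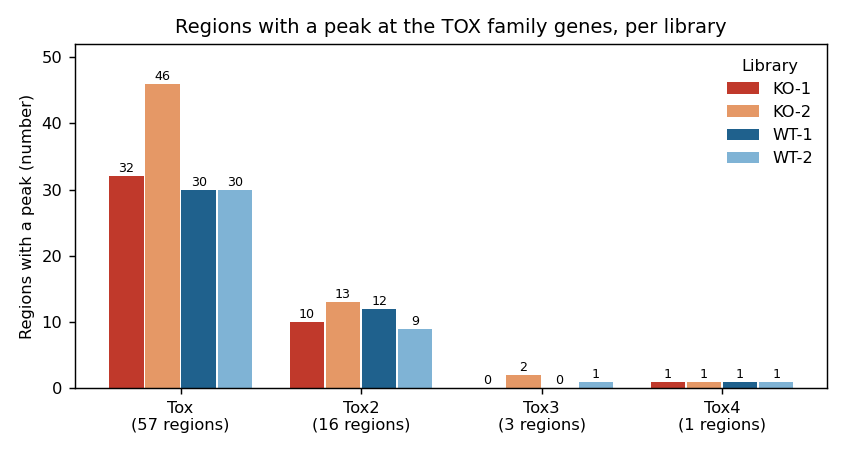
Number of regions with a peak (vertical axis) at each TOX family gene, with 1 bar per library. The Tox bars reach 32 and 46 in KO-1 and KO-2 and 30 in both WT libraries, while Tox3 has at most 2 regions and Tox4 has 1 in every library.

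Peaks at Tox also covered more bases in the KO libraries. They covered 16530 bp in KO-1 and 20596 bp in KO-2, against 11579 bp in WT-1 and 13548 bp in WT-2, with a mean deposited fold enrichment of 5.09 and 5.67 against 4.52 and 4.50. The median Tox peak was 494.5 and 377 bp wide in KO-1 and KO-2, against 365.5 and 339 bp in WT-1 and WT-2. All these values lay higher in both KO than in both WT libraries, although over whole lists the median width was 339 and 307 bp in KO-1 and KO-2 against 329 and 343 bp in WT-1 and WT-2. The fold enrichment of a peak is measured against the background of its own library, so folds are set out below with their percentile, the percent of peaks in the same list with a fold at or below it. Percentiles from lists of different length show no change by themselves and were not tested.

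The start of Tox was the place where the WT libraries had a peak and the KO libraries did not. Tox occupies chromosome 4 from 6686353 to 6991557, is transcribed from its upper toward its lower coordinate, and is 305 kb long. The region chr4:6990165-6991572 had no peak in KO-1 or KO-2, against a fold of 6.57 (percentile 72.8) in WT-1 and 7.12 (percentile 76.9) in WT-2. These peaks were 1408 and 1100 bp wide, and their summits lay 272 and 252 bp inside the upper end of the gene. The nearest peaks of KO-1 on either side of this region were 19.3 and 99.4 kb away, and those of KO-2 were 9.77 and 40.9 kb away, so both KO lists were empty across it. It was the only WT-only region at Tox, that is, one called in WT-1 and WT-2 and in no KO list. WT-only regions made up 1.75% of the Tox regions and 8.8% of all regions. Leaving out a library loosens the WT-only rule, and the count at Tox was then 2 without KO-2, 5 without WT-1 and 7 without WT-2. The share of all regions under the looser rule is not given, so these counts have no background here.

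KO-only regions, with a peak in both KO and neither WT library, numbered 7 at Tox, which is 12.3% of its regions, where 1.78% of all regions were KO-only. No other gene of 16541 had as many, and the next count was 6. This rank is by count and not by share, and by share Csnka2ip stood higher, with 4 KO-only of 8 regions. Tox is a long gene with many regions, and 20 genes, itself included, had 57 or more. Without KO-1 the count at Tox was 20, since a peak in KO-2 alone then sufficed, and with any other library left out it lay between 7 and 10. The shares of all regions with a library left out are not given, so these counts too have no background here. Among the 167 regions of the T cell marker genes 8.38% were KO-only and 5.39% WT-only, and among the 132 of the B cell markers 0.758% and 50.0%. Of the T cell marker genes, Thy1, the gene of a surface protein of T cells, had 3 KO-only of 18 regions and Lat, the gene of a receptor adaptor, 2 of 8, with no WT-only region at either. How far the peaks at B cell markers in the WT libraries bear on the count at Tox was not tested. In bulk cells, fewer cells with an open site and a site less open in each cell cannot be told apart.

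The KO-only regions were spread over the gene and beyond its lower end, where transcription stops. The region with the highest folds, chr4:6663202-6664200, lay 22.7 kb beyond that end, with a fold of 7.20 (percentile 80.5) in KO-1 and 9.15 (percentile 79.9) in KO-2. Another, chr4:6682751-6683210, lay 3.4 kb beyond the end, with a fold of 2.74 (percentile 8.89) in KO-1 and 4.28 (percentile 50.7) in KO-2. It was 249 bp from a region open in all 4 libraries. These 2 regions differed in agreement between the libraries, since the first ranked alike in both and the second was near the floor of the KO-1 list.

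Inside the gene stood the other 5. The region chr4:6772034-6773011 was 978 bp wide and had a fold of 4.25 (percentile 59.7) in KO-1 and 8.39 (percentile 77.4) in KO-2. At chr4:6748197-6748663 the fold was 4.09 (percentile 57.5) in KO-1 and 3.73 (percentile 42.9) in KO-2. Both lay nearer to the end of the gene than to its start, in a stretch from 6689465 to 6793354 in which neither WT list had a peak. At chr4:6950315-6950634 the fold was 3.60 (percentile 49.2) in KO-1 and 3.73 (percentile 42.9) in KO-2. The last 2, chr4:6860345-6860543 and chr4:6934526-6934734, were 199 and 209 bp wide and had percentiles of 30.8 and 31.7 and of 30.0 and 4.80 in KO-1 and KO-2. These 2 narrow regions lay 235 and 191 bp from a region open in all 4 libraries.

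**Figure D2:**
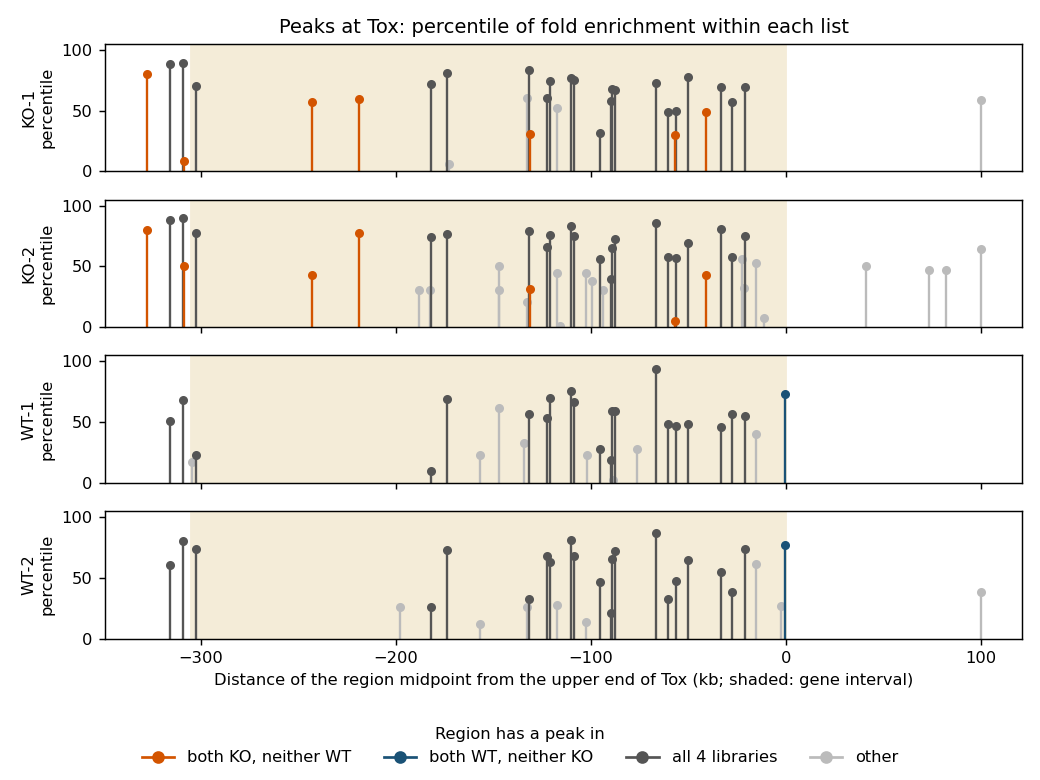
Every Tox region with a peak, by library, with the distance of its midpoint from the upper end of Tox in kb (horizontal axis, start of the gene at 0, gene shaded) and the percentile of its fold enrichment within the list (vertical axis). Orange marks the 7 regions in both KO and neither WT library and blue the single region of the WT libraries alone, which sits at the start of the gene.

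A core of Tox regions was open in every library. Regions with a peak in all 4 libraries numbered 21 of 57 (36.8%), against 27.6% over the whole series, and 19 of the 21 lay inside the gene. Their summits fell within 100 bp of each other in 15 of the 21, and lay up to 367 bp apart in the others. Their median percentile was 70.8 in KO-1 and 74.8 in KO-2, against 55.2 in WT-1 and 64.9 in WT-2, and their median fold was 5.47 and 7.71 in KO-1 and KO-2 against 4.43 and 5.18 in WT-1 and WT-2.

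Region by region, the KO libraries ranked these shared sites higher in most cases. Both KO percentiles lay above both WT percentiles at 13 of the 21, and both WT above both KO at 1. Over all 26867 shared regions these orders held for 16.5% and 25.9%. The mean percentile was higher in KO than in WT at 20 of the 21, against 40.1% of all shared regions, and the median difference, KO minus WT, was 8.17 points at Tox and -1.33 points over all shared regions. Leaving out WT-2 moved the count to 20 of 21, where 29.7% of all shared regions had this order. Shared regions of the T cell marker genes had this order in 34.3% of cases, with a median difference of 3.59 points, and those of the B cell markers had a median difference of -5.64 points.

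The 5 shared Tox regions with the highest lowest percentile over the libraries had a peak of at least percentile 66.7 in every library. One of them, chr4:6924465-6925241, lies 66.7 kb inside the gene from its start and was the single shared region that ranked higher in WT. Its fold was 5.73 (percentile 72.6) in KO-1 and 11.3 (percentile 85.8) in KO-2, against 13.6 (percentile 93.8) in WT-1 and 10.5 (percentile 87.3) in WT-2. The groups did not overlap by percentile, but KO-2 stood closer to WT-2 than to KO-1.

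At chr4:6880869-6881745 the folds were 6.43 and 10.5 in KO-1 and KO-2, against 7.14 and 8.38 in WT-1 and WT-2, and the percentiles 76.8 and 83.7 against 75.7 and 81.6 overlapped. At chr4:6882507-6883067, just above it, the folds were 6.16 and 7.71 in KO-1 and KO-2 against 5.62 and 5.53 in WT-1 and WT-2, with percentiles of 75.2 and 74.8 against 66.7 and 67.9. At chr4:6817140-6817859 the percentiles were 81.3 and 77.0 in KO-1 and KO-2 against 69.3 and 73.3 in WT-1 and WT-2. The last 2 of these ranked higher in both KO libraries. The fifth, chr4:6681839-6682502, lies 4.2 kb beyond the lower end of the gene and had folds of 9.42 and 12.9 in KO-1 and KO-2, against 5.85 and 8.01 in WT-1 and WT-2.

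The wider gaps, chosen after their values were seen, lay toward the lower end of the gene and in its middle. At chr4:6674862-6675812, 11.0 kb beyond the lower end, the fold was 9.34 (percentile 88.9) in KO-1 and 12.3 (percentile 88.4) in KO-2, against 4.13 (percentile 51.0) in WT-1 and 4.69 (percentile 60.5) in WT-2. With the fifth region above and the KO-only pair, all 4 regions beyond the lower end ranked higher in both KO libraries or had a peak in them alone. At chr4:6809212-6809758 the fold was 5.71 (percentile 72.4) in KO-1 and 7.57 (percentile 74.2) in KO-2, against 2.60 (percentile 9.92) in WT-1 and 2.83 (percentile 25.9) in WT-2. At chr4:6859539-6860110 the percentiles were 83.4 and 79.1 in KO-1 and KO-2 against 57.1 and 32.3 in WT-1 and WT-2. In each of these the KO libraries agreed closely and stood apart from both WT libraries.

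**Figure D3:**
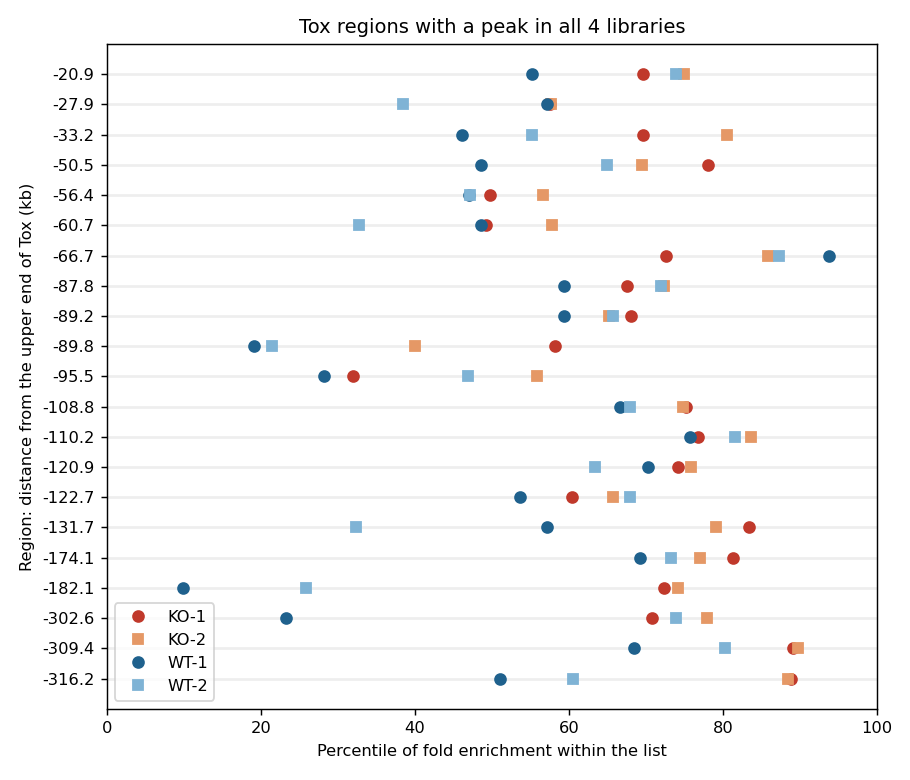
Percentile of fold enrichment (horizontal axis) in each library for the 21 Tox regions with a peak in all 4 libraries, ordered by distance from the upper end of the gene in kb (vertical axis). The red and orange KO points lie right of both blue WT points in 13 rows, and in 1 row, 66.7 kb from the start, they lie left of them.

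The remaining 28 Tox regions had other combinations of libraries, and 22 of them had a peak in 1 library alone. Of these 22, 1 was private to KO-1, 12 to KO-2, 6 to WT-1 and 3 to WT-2. Over the series 48.4% of regions had a peak in 1 library alone, with shares of 7.68% and 18.8% for KO-1 and KO-2, against 8.96% and 13.0% for WT-1 and WT-2. The 28 regions were narrow, with a median width of 234 bp, and no peak in them passed percentile 64.2. Beyond the upper end, upstream of the gene, lay 4 regions, of which 1 and 4 had a peak in KO-1 and KO-2, against 0 and 1 in WT-1 and WT-2.

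Regions around Tox that belonged to no family gene were counted as well. Within 500 kb of the gene on either side, 9 of 56 further regions (16.1%) were KO-only and 3 (5.36%) WT-only. Within 1000 kb these were 14 of 77 (18.2%) and 4 (5.19%), and within 5000 kb 22 of 319 (6.9%) and 33 (10.3%), where all regions had 1.78% and 8.8%. The KO-only shares within 500 and 1000 kb were thus above the 12.3% at Tox, and the difference was not tested. The next protein-coding genes, Nsmaf below and Car8 above, had no region of either kind, with 14 and 4 regions.

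Genes whose regions were divided over the libraries most like those of Tox were Runx1, Slc9a9, Cd28, Itga9 and Gpm6b. They were the nearest of 556 genes with at least 20 regions, by Euclidean distance between the 4 shares of regions with a peak, which ranged from 0.0771 for Runx1 to 0.0867 for Gpm6b. Cd28, the gene of the main costimulatory receptor, had a peak in 52.2% and 78.3% of its 23 regions in KO-1 and KO-2, against 47.8% in each WT library. Runx1, the gene of a lymphoid transcription factor, had 52.4% and 76.2% of 42 in KO-1 and KO-2, against 57.1% and 54.8% in WT-1 and WT-2. KO-only regions numbered 3 of 42 at Runx1, 1 of 39 at Slc9a9 and 2 of 23 at Cd28. They numbered 3 of 32 at Itga9 and 2 of 21 at Gpm6b, beside 12.3% at Tox and 1.78% of all regions. The distance describes 4 libraries and was not tested.

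Tox2 had no KO-only and no WT-only region, kinds that made up 1.78% and 8.8% of all regions. With 16 regions at Tox2, the difference from these shares was not tested. Tox2 lies on chromosome 2 from 163203058 to 163324172. Of its 16 regions 9 (56.2%) had a peak in all 4 libraries, against 27.6% of all regions. The other 7 had other combinations, 6 of them with a peak in 1 library alone, as 48.4% of all regions had. Regions with a peak numbered 10 and 13 in KO-1 and KO-2, against 12 and 9 in WT-1 and WT-2. The means were 11.5 ± 2.12 in KO and 10.5 ± 2.12 in WT (SD, n = 2 each), so the groups overlapped (exact two-sided permutation p = 0.667). The difference, KO minus WT, was 1.0, was -0.5 without KO-2 or without WT-2, and was 2.5 without KO-1 and 3.5 without WT-1.

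RefSeq promoter windows on GRCm38.p6, from 250 bases before a start to 50 after it, were matched for 3 of the 4 genes, Tox2, Tox3 and Tox4. They are shown because the genes part ways there, with a peak over the start in every library, in none, or over 1 start and not over another of the same gene. Capitals mark any match of the motifs searched on both strands, which were TGANTCA for AP-1, TGGAAA for NFAT, CCGGAAG for ETS factors, TGTGGTT for RUNX, CTTTGA for TCF and LEF, AAAGGTCA for NR4A, GGGCGG for SP and KLF factors, CACGTG for the E-box, TATAAA for the TATA box and CCAAT for the CCAAT box. Matches that overlap run together. The sequences read 5′ to 3′ on the strand of the gene:
Tox2 outer start, plus strand, chr2:163202877-163203176: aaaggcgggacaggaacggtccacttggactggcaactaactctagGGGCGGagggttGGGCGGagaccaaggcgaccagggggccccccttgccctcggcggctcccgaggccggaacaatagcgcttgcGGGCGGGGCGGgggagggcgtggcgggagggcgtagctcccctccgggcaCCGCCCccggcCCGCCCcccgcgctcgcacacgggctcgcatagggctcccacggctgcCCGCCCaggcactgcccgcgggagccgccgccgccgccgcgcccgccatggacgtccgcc
Tox2 inner start, plus strand, chr2:163225203-163225502: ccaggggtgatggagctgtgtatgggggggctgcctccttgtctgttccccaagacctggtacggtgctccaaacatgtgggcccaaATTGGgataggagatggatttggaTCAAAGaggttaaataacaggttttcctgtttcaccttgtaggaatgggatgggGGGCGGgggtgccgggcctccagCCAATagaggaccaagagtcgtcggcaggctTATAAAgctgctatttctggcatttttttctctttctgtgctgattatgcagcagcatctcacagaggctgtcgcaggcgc
Tox3, minus strand, chr8:90348203-90348502: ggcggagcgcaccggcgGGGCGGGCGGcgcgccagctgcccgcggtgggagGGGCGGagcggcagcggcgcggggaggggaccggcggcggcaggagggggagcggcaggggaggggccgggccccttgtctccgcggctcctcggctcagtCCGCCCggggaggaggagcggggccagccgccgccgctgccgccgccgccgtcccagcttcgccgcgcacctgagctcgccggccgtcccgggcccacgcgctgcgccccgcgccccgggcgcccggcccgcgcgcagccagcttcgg
Tox4, plus strand, chr14:52278896-52279195: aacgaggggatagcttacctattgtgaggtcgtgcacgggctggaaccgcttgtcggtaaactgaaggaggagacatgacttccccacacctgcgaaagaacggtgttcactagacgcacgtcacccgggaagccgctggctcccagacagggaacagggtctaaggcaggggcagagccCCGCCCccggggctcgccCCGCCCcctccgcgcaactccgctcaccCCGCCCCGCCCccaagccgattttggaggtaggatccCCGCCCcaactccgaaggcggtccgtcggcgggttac

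The outer start of Tox2 lay under a peak in every library. The region chr2:163202816-163204747 had a fold of 6.70 (percentile 78.0) in KO-1 and 10.8 (percentile 84.6) in KO-2, against 8.03 (percentile 79.5) in WT-1 and 7.28 (percentile 77.6) in WT-2. The groups overlapped by percentile. The 4 summits lay within 3 bp of each other, 429 to 432 bp downstream of the outer start. RefSeq has 5 starts of Tox2, of which 3 lie in this region, while the inner pair, 1 base apart, had no peak in any library, the nearest region being 3.33 kb away. In the outer window 77.0% of bases were G or C, with 38 CG steps and 7 matches of GGGCGG, and in the inner window 53.3%, with 7 CG steps, 2 matches of the CCAAT box and 1 each of the TATA, TCF and SP motifs. Of all 32851 windows, 35.7% held the SP motif, 37.4% the CCAAT box, 13.6% the TATA box and 16.0% the TCF motif, and the median window had 52.7% G or C.

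The firmest peak of Tox2 besides its start lay 26.2 kb inside the gene, just downstream of the inner starts, at chr2:163228788-163229814. Its fold was 6.95 (percentile 79.3) in KO-1 and 15.9 (percentile 95.3) in KO-2, against 9.31 (percentile 83.7) in WT-1 and 9.07 (percentile 83.7) in WT-2. KO-1 was the lowest and KO-2 the highest, with the WT libraries between them. The widest gap between the genotypes, chosen after its values were seen, was at chr2:163285724-163286247, with percentiles of 52.3 and 83.8 in KO-1 and KO-2 against 32.6 and 46.9 in WT-1 and WT-2. Both KO percentiles lay above both WT percentiles at 2 of the 9 shared regions, at one of them by 0.00407 points, and both WT above both KO at none, where 16.5% and 25.9% of all shared regions had these orders. The 2 became 5 of 6 when every list was cut to the length of the shortest, where 26.3% of all shared regions had this order, 7 of 9 without KO-1, where 43.0% did, and 5 of 9 without WT-2, where 29.7% did. The 7 Tox2 regions not open in every library had percentiles of at most 19.8.

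**Figure D4:**
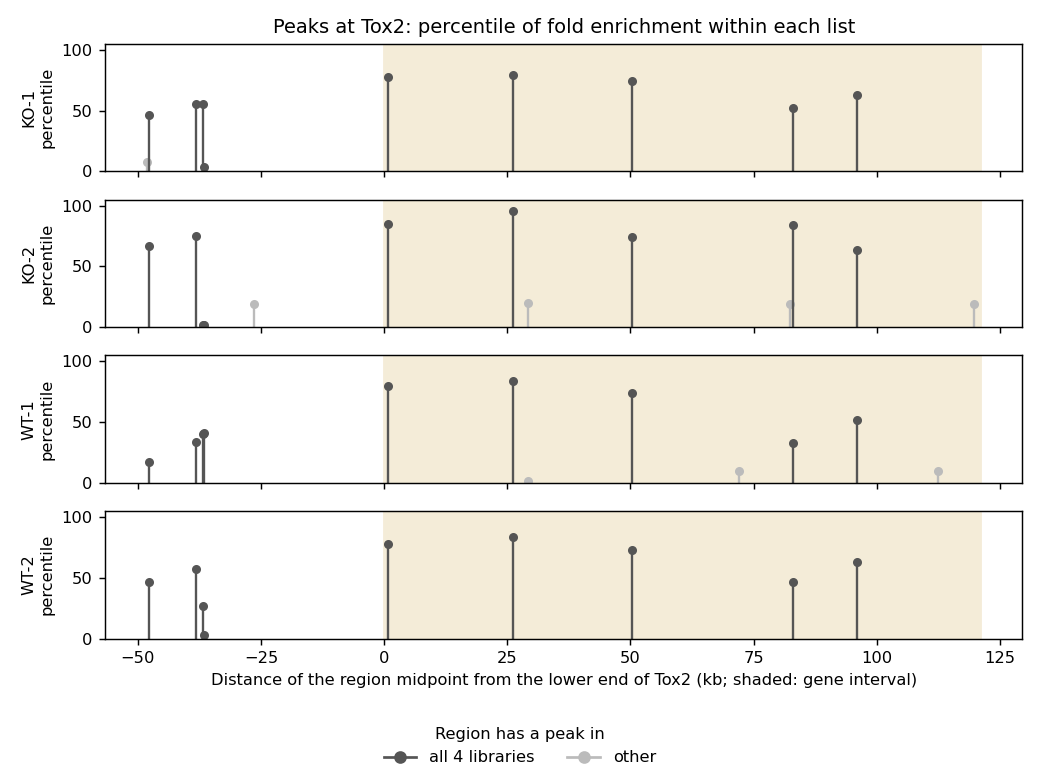
Every Tox2 region with a peak, by library, with the distance of its midpoint from the lower end of Tox2 in kb (horizontal axis, outer start of the gene near 0, gene shaded) and the percentile of its fold enrichment within the list (vertical axis). The dark points, open in all 4 libraries, number 9, and none of the 16 regions is in both libraries of one genotype and in neither of the other. Among all regions 1.78% were in both KO libraries alone and 8.8% in both WT libraries alone.

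Tox3 had few peaks in any library. It lies on chromosome 8 from 90247110 to 90349029, and no peak of any list fell inside it. Its 3 regions all lay outside the gene and each came from 1 library, giving 0 and 2 in KO-1 and KO-2, against 0 and 1 in WT-1 and WT-2. They were 212 to 280 bp wide, with percentiles between 12.2 and 21.4. The groups overlapped (exact two-sided permutation p = 1.0), and the difference of 0.5 was -0.5 without KO-2, 1.5 without KO-1, 1.0 without WT-2 and 0 without WT-1. The nearest region to the RefSeq start of Tox3 used here was 45.6 kb away. The window around that start, printed above, had the most G and C of those shown, at 85.3%, with 52 CG steps and 4 matches of GGGCGG, and no peak lay over it. Of 32619 RefSeq starts on the chromosomes in the lists, 60.4% had no peak in any library and 33.0% had one in all 4.

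Tox4 had 1 region, open in every library and among the strongest of each list. The gene spans chromosome 14 from 52279146 to 52295509, and the region chr14:52278818-52280101 covers its start. The fold was 11.1 (percentile 94.5) in KO-1 and 15.4 (percentile 94.6) in KO-2, against 15.2 (percentile 96.6) in WT-1 and 15.6 (percentile 96.8) in WT-2. Both WT percentiles lay above both KO percentiles by 2.19 points on average, an order that 25.9% of all shared regions had. The peaks were 1174 and 1247 bp wide in KO-1 and KO-2, against 1272 and 1282 bp in WT-1 and WT-2, and their summits lay within 9 bp of each other, 326 to 335 bp downstream of the Tox4 start. The interval of Rab2b, the gene of a small GTPase, ends at 52279395 and overlaps the start of Tox4, so the peak cannot be given to one of them alone. The Tox4 window had 65.7% G or C, 27 CG steps and 5 matches of GGGCGG.

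By the number of regions with a peak per 100 kb of gene, Tox stood highest in the family. This counts regions and not the bases that their peaks cover, and an order by covered bases need not be the same. Inside the gene interval it had 8.85 and 12.5 regions with a peak per 100 kb in KO-1 and KO-2, against 9.17 and 8.85 in WT-1 and WT-2. Tox2 had 4.13 and 6.61 per 100 kb in KO-1 and KO-2, against 6.61 and 4.13 in WT-1 and WT-2. Tox4, with a single region, stood at 6.11 per 100 kb in each library and Tox3 at 0. Tox lay above Tox2 in every library, while Tox2 and Tox4 did not differ beyond the spread of Tox2.

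Gene lists related to the TOX family were counted by the same rules. The 15 genes of calcineurin, NFAT, NR4A and their partner factors had 4 KO-only (2.21%) and 18 WT-only (9.94%) of 181 regions. KO-only regions stood at Nr4a3, Egr2, Irf4 and Batf, with 1 each, beside WT-only counts of 0, 1, 3 and 1. Nfatc1, the gene of an NFAT factor, had 4 WT-only and no KO-only of 41. Another 7 lymphocyte genes with an HMG box had 1 KO-only (0.893%) and 11 WT-only (9.82%) of 112. Lef1, a partner of beta-catenin, had 4 WT-only of 36, and Tcf7, the gene of TCF-1, had 1 of each kind of 23. Protein partners of TOX proteins, also 7 genes, had 0 and 2 of 25, both at Kat7, an acetyltransferase gene. These shares were close to the 1.78% and 8.8% of all regions, so they are no result about these lists.

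**Figure D5:**
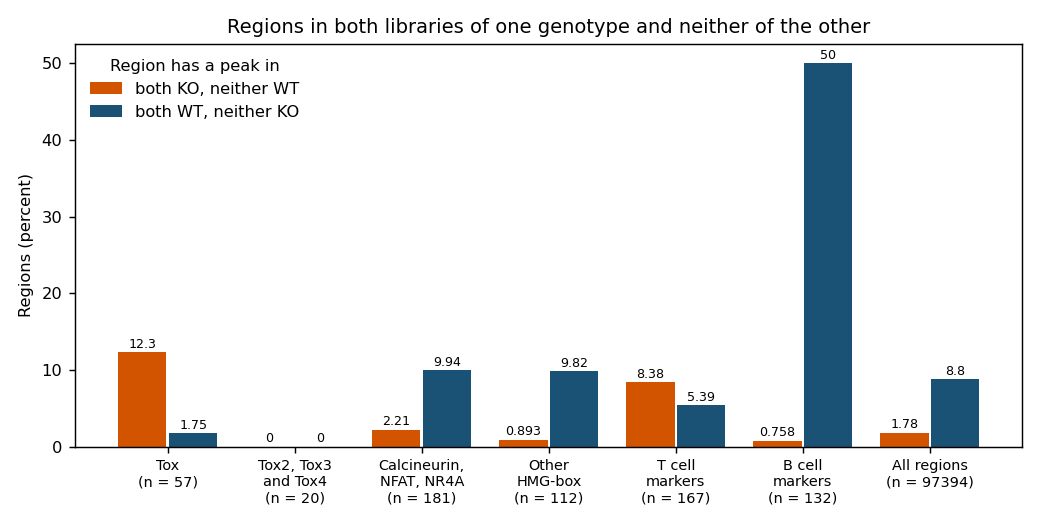
Percent of regions (vertical axis) with a peak in both KO and neither WT library (orange) and the reverse (blue) for Tox, the other 3 family genes, fixed gene lists and all regions, with the number of regions under each pair. Tox reaches 12.3% KO-only and 1.75% WT-only, against 1.78% and 8.8% of all regions, and the B cell markers reach 50.0% WT-only.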

How the data were processed

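ATAC-seq peak lists of 2 KO and 2 WT libraries were used, grouped by library name. Cells had been frozen in 10% DMSO after the sort and transposed for 45 min at 42 °C, and fragments were read from both ends over 50 bp, per the labels' protocols. The tools were MACS2, BWA, deepTools, Picard and SAMtools on GRCm38 (mm10), per the submitters' processing notes; their versions, settings and read filters are unstated there. The deposited fold enrichment is a ratio over the background of the same library. Each deposited −log10 p or −log10 q gives the strength of a peak over that background. The deposited score, 10 times the −log10 p and capped, was not used. These are the authors' values per peak and only ranked or filtered peaks within a list. Depth is unknown, so no counting interval was set.

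Regions, gene assignment (RefSeq, GRCm38.p6, a table without strand or exons) and percentiles were computed in Python 3.11.15 with pandas 2.3.3, and region building was tested on simulated lists. Where a library had several peaks in a region, the highest fold was used. The named regions were every KO-only and WT-only one, those at starts, and the shared ones with the highest lowest percentile, 5 at Tox and 2 at Tox2. Members and gene lists were chosen with earlier results of these data known. Trac is not in the table. Pairing by replicate number, stricter peaks, equal list lengths, other overlap and gene rules and each replicate left out were tried.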

Additional observations from a re-analysis of the deposited data

How the results depend on the processing

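At Tox, KO-only regions numbered 5 to 9 and WT-only regions 1 under the 8 other settings for peak strength, list length, overlap and gene rule, and the regions with a peak had a higher mean in KO, by 5.0 to 13.0, the 5.0 for regions inside the gene, where the groups overlapped (exact permutation p = 1.0). With 1 replicate left out the ranges were 7 to 20 KO-only and 1 to 7 WT-only regions at Tox, 8 to 25 and 1 to 9 at the family, and a difference of regions with a peak of 2.0 to 17.0 at Tox, -0.5 to 3.5 at Tox2 and -0.5 to 1.5 at Tox3. By construction, fewer libraries loosen both rules. This holds for all regions too. Their KO-only and WT-only shares are not given with a replicate left out or under the 8 other settings. The KO-only and WT-only counts thus have no background there. Counting every region within 100 kb whatever its nearest gene gave 3 WT-only regions at the family and -3.0 at Tox2, regions inside the gene alone gave 0 at Tox2, and a limit of 50 kb gave 0 at Tox3; the cause was not tested. Tox3 had no region left under stricter or shorter lists or inside the gene. Shared regions with both KO percentiles above both WT numbered 12 to 15 of 17 to 21 at Tox under the other measures. Over all shared regions 15.8% to 26.3% then had this order. Without 1 replicate, alternatives chosen after seeing the data, the count was 14 to 20 of 21 to 24 at Tox and 3 to 7 of 9 at Tox2. Over all shared regions 21.8% to 43.0% then had this order, and the 3 of 9 at Tox2 stood beside 21.8% and 24.6%. With lists of equal length the count was 5 of 6 at Tox2, beside 26.3%. Replicate numbers appear in both genotypes, but same-numbered libraries did not deviate together (correlation -0.0153 over regions), and with a replicate block the difference of 9.0 at Tox had an exact permutation p of 0.5, the smallest that 2 pairs allow. Depth is unknown, and an absent peak can lie just under the caller's threshold.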
